A study of Mus musculus with 8 samples.

Results

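The genes of 10 transcription factors that specify and mature oligodendrocytes, which wrap brain axons in myelin, were examined for binding of Qki-5, PPARb and RNA polymerase II (Pol II) in their own neighbourhood. These genes, Sox10, Olig1, Olig2, Nkx2-2, Nkx6-2, Myrf, Zfp24, Zfp488, Tcf7l2 and Sox8, were taken by symbol from the RefSeq annotation of GRCm38, out of 21887 protein-coding genes on chromosomes 1 to 19, X and Y. A peak was assigned to a gene when its centre lay in the gene span or within 20 kb of it. Binding was mapped by chromatin immunoprecipitation with sequencing (ChIP-seq). Differentiated cells were derived at passage 7 from neural stem cells of FvB/C57BL6 hybrid background with ectopic expression of PPARb carrying an HA tag, in medium with insulin-like growth factor 1 and triiodothyronine. The antibodies used on them were against Qki-5, PPARb, HA and the repeat domain of Pol II. Isolated cells came straight from C57BL6 mouse brain by beads against the surface marker O4, at passage 0, and were used with the Qki-5 and PPARb antibodies. The promoter driving the introduced PPARb, the number of clones and the number, age and sex of the mice are not given in the sources used here. Each antibody and cell kind had 1 library and each cell kind 1 input library, so nothing below has a replicate error.

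Qki-5 is the nuclear form of the RNA-binding protein Quaking, which is needed for myelination, and PPARb is a nuclear receptor for fatty acids that binds DNA with an RXR partner. Olig2, a basic helix-loop-helix factor, is needed to specify the oligodendrocyte lineage, and its paralog Olig1 supports later maturation. Sox10, aided by its relative Sox8, keeps the lineage identity and switches on Myrf, which then drives myelin genes together with Sox10. Nkx2-2 and Nkx6-2 are homeodomain factors, Zfp24 and Zfp488 are zinc finger proteins that promote differentiation, and Tcf7l2 is the Wnt pathway factor expressed as oligodendrocytes begin to mature.

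The antibody libraries held 12624236 to 24880851 tags, of which 0.116% to 4.62% lay in peaks, the lowest share being that of PPARb in isolated cells. The height of a peak is the authors' tag count scaled to 10000000 tags per library. A peak of median height held 14 to 22 tags, and the caller's threshold was 10 to 14 tags. Each list also held peaks under its threshold, as in HA, with a lowest height of 6.34 where the threshold was 7.92. Heights describe and rank peaks within a list. Intervals in parentheses are 95% exact intervals, Poisson for heights and Clopper-Pearson for shares, and they cover counting error only. A gene without a peak is one where none was detectable at this depth. Peaks are binding and not expression, so the cell labels could be checked only loosely: among oligodendrocyte marker genes, Pol II had peaks within 20 kb of Mbp and Cnp and none at Mag or Mog in differentiated cells, while both astrocyte genes tested, Gfap and Aqp4, carried Pol II. In the same cells Pol II peaks lay near the neuronal gene Rbfox3 but not Snap25, near the microglial gene Aif1 but not Cx3cr1, and near the endothelial gene Pecam1 but not Cldn5. In isolated cells Qki-5 peaks lay near Mbp, Mag and Cnp, near Gfap, Aif1, Cldn5 and Pecam1, and near neither neuronal gene. The part of other cell types in the results was not tested.

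Promoter sequences were read for the genes where a peak reached them. RefSeq (GRCm38.p6) gave 7 start sites for 6 of the 10 genes, Nkx2-2, Nkx6-2, Zfp488, Olig2, Sox8 and Tcf7l2, the last with a pair. Sox10, Olig1, Zfp24 and Myrf had no entry. The 250 bases before each start are shown 5′ to 3′ for the 3 starts whose promoter was touched by a peak. The Tcf7l2 window, chr19:55741560-55741809 on the plus strand, was overlapped by peaks of all 4 antibodies used on differentiated cells. The Sox8 window, chr17:25570687-25570936 on the minus strand, was overlapped by Qki-5 and Pol II peaks. The Nkx2-2 window, chr2:147186403-147186652 on the minus strand, was touched at its end by an HA peak. Capitals mark matches to an E-box (CANNTG) or, in Tcf7l2, to the SOX core ACAATG read on the opposite strand as CATTGT.
Tcf7l2: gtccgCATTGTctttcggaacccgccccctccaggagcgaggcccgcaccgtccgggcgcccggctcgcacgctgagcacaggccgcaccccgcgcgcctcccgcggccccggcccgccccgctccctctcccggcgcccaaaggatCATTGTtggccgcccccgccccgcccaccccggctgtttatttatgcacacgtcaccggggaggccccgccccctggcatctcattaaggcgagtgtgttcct
Sox8: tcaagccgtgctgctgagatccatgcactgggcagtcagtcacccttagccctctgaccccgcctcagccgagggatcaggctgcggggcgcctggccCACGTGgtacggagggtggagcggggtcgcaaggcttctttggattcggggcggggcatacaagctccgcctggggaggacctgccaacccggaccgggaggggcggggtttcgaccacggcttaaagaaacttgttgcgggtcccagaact
Nkx2-2: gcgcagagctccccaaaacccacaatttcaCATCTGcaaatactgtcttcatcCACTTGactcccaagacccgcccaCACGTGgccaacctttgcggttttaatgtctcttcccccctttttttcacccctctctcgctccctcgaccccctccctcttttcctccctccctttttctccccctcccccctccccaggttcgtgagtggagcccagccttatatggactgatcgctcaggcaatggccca

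Motifs were searched on both strands of these 250-base windows. The nuclear receptor half-site AGGTCA, its direct repeat with 1 base between the copies (DR1), which contains the half-site, and the Quaking recognition core ACTAAC had no match in the 7 windows of the 10 genes. Over 32851 RefSeq promoters of the same length their shares were 14%, 0.0335% and 5.2%. E-boxes stood in 3 of the 7 windows, those of Nkx2-2, Nkx6-2 and Sox8, against 66.2% of all promoters. The SOX core stood in 2, those of Olig2 and the upstream Tcf7l2 start, against 10.7% of all promoters. No window held matches to more than 1 of these motifs. A match is a stretch of letters and was not tested as a site.

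In differentiated cells most of the 10 genes had nearby binding, at shares near those of genes in general. Qki-5 peaks lay near 8 of the 10 genes, against 69.5% of all protein-coding genes. PPARb peaks lay near 7, against 66.4%, and HA peaks near 9, against 68.8%. Pol II peaks lay near 5, Olig1, Myrf, Zfp24, Tcf7l2 and Sox8, against 56.5%. All 4 antibodies, of which HA marks the introduced PPARb, gave peaks near those same 5 genes, and 54.7% of all genes had peaks of the 4. Overlapping Qki-5 and PPARb peaks were found near 6 of the 10, against 61.2% of all genes, the sixth being Sox10. In isolated cells Qki-5 peaks lay near 8 of the 10, against 45.3% of all genes, and PPARb peaks near 2, Sox10 and Olig1, against 11.3%. The count for Pol II was 8 with a window of 50 kb and 3 when peaks had to be 8-fold over input, and at 8-fold 3 genes kept a Qki-5 peak in isolated cells and 0 a PPARb peak. With gene spans alone 4 genes had Qki-5, 3 PPARb and 4 HA in differentiated cells, and 4 had Qki-5 and 0 PPARb in isolated cells. The 10 genes were chosen with results of these data known, so none of these shares was tested. Their median span of 10338 bp was shorter than the 17169 bp of all protein-coding genes.

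**Figure D1:**
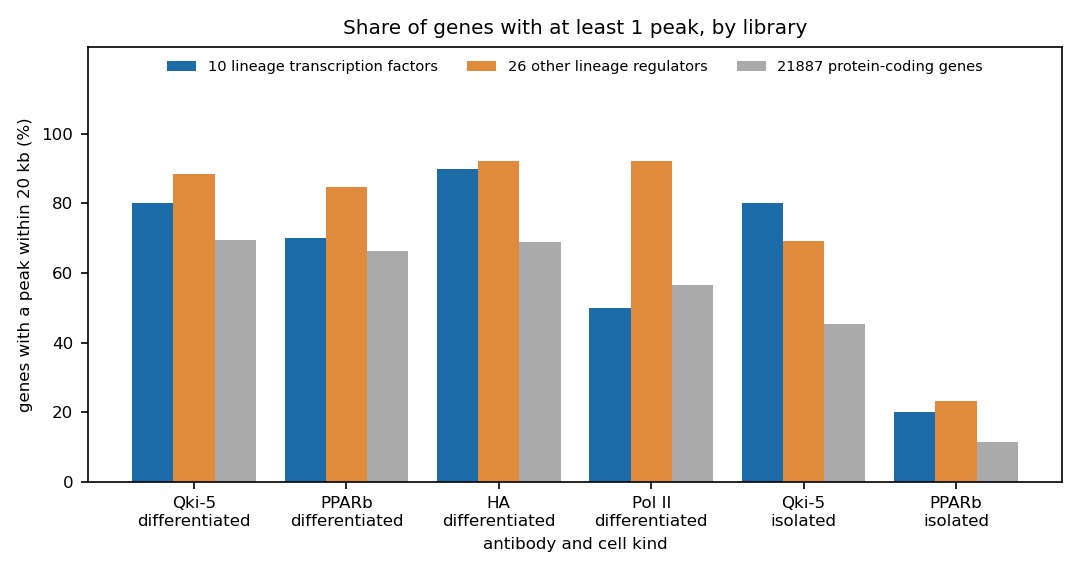
Share of genes with at least 1 peak within 20 kb of the span (y axis, %) in each of the 6 antibody libraries (x axis), for the 10 lineage transcription factors, 26 other lineage regulators and 21887 protein-coding genes; there are no error bars because each bar is 1 library. The 10 factors stood at 90% against 68.8% of all genes for HA, at 50% against 56.5% for Pol II and at 80% against 45.3% for Qki-5 in isolated cells.

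The peaks were unevenly spread over the genes. Tcf7l2, whose span of 191863 bp is by far the longest here, held 36 peaks of all lists, Myrf 18, Olig1 14, Sox8 12 and Sox10 9. Zfp24 had 7, Olig2 and Nkx2-2 4 each, Zfp488 3 and Nkx6-2 a single one. Where peaks overlapped by at least 1 bp they were joined into sites, which gave 49 sites near the 10 genes out of 45689 in the series. Of the 49 sites, 25 lay inside a gene span and 8 lay nearer to another protein-coding gene than to the factor. Sites with Qki-5, PPARb and HA together numbered 16, and 12 of those lay nearest to the factor itself, at Olig1, Myrf, Zfp24, Tcf7l2 and Sox8.

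**Figure D2:**
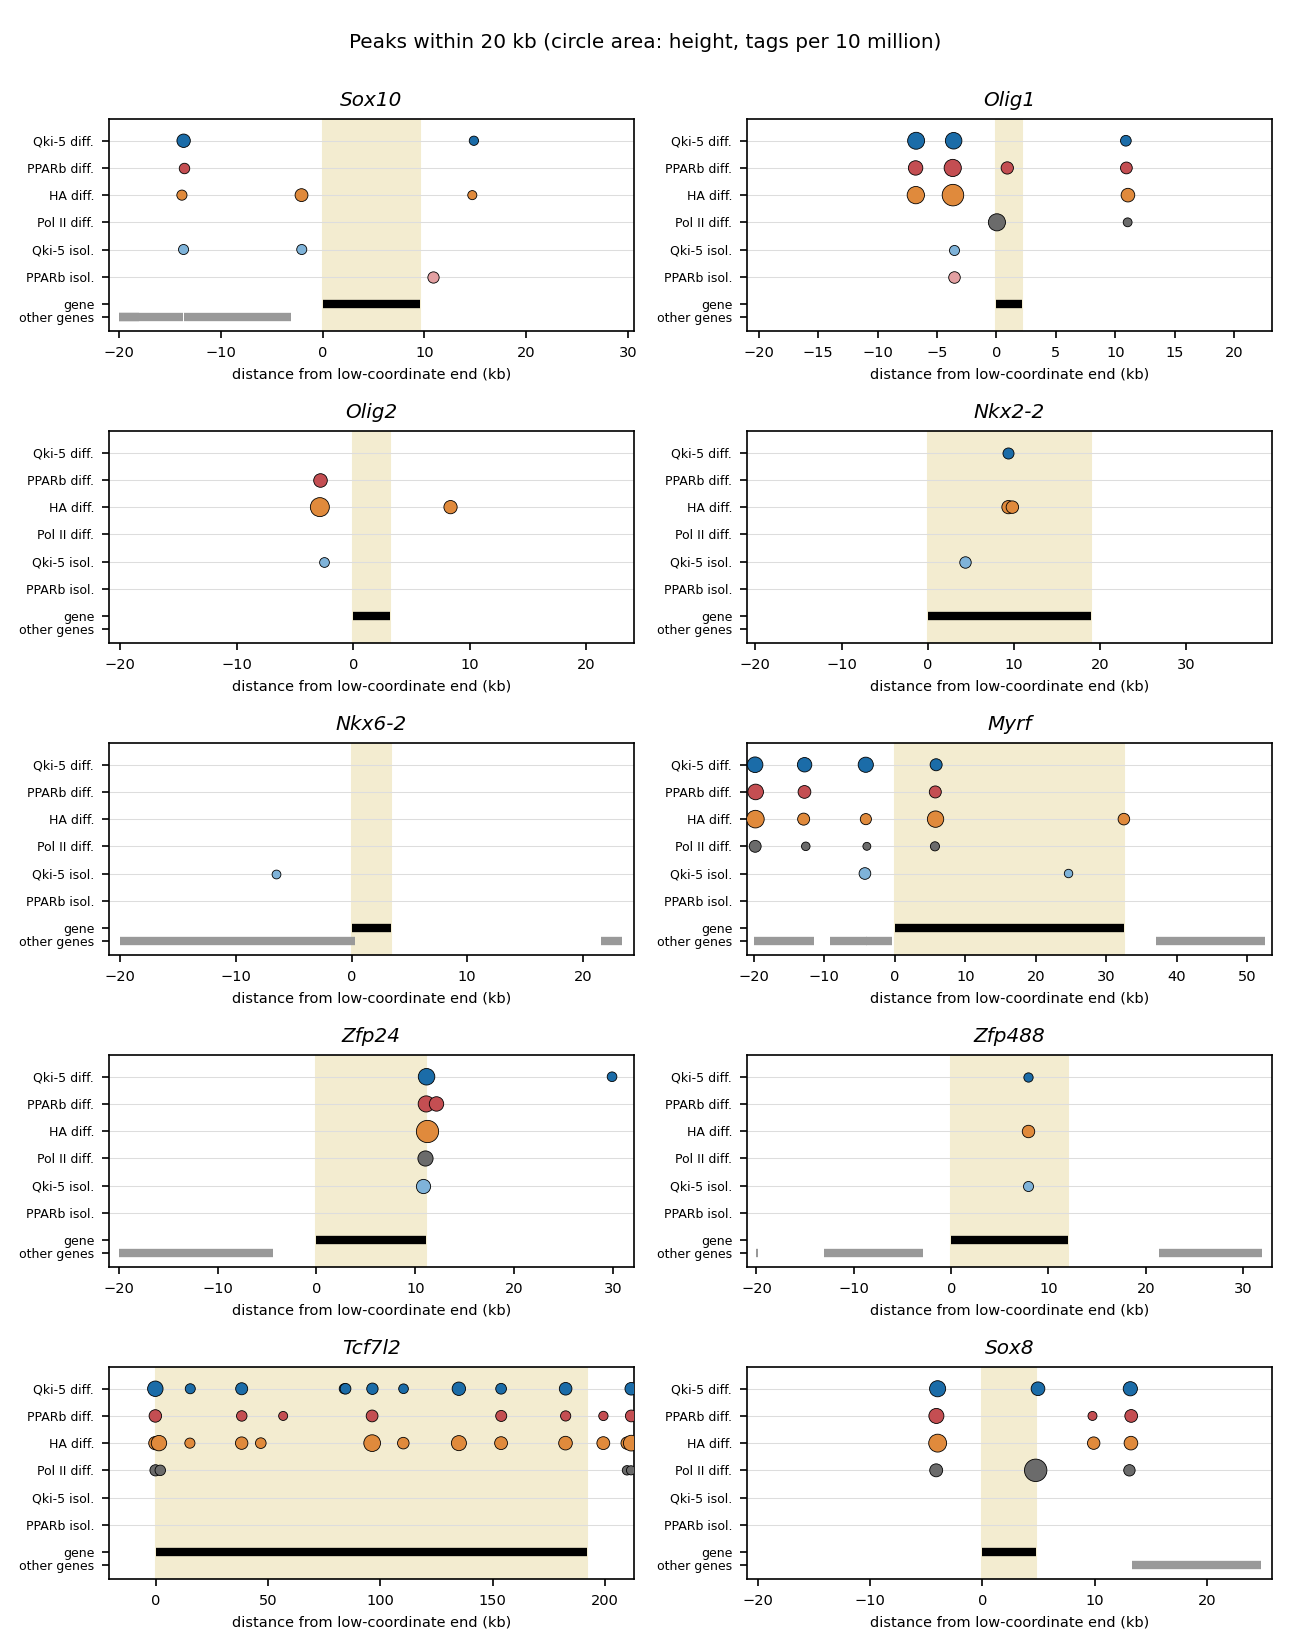
Positions of all peaks near each gene, as distance in kb from the end of the span with the lower coordinate (x axis), with 1 line per antibody library; the area of a circle is proportional to its height, the black bar and shading are the gene and grey bars are other protein-coding genes. Differentiated-cell peaks of several antibodies stand above each other at Olig1, Zfp24, Tcf7l2 and Sox8, Nkx6-2 has 1 peak, and Tcf7l2 and Sox8 have none from isolated cells.

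The Olig pair lies on chromosome 16, Olig2 at 91225550 to 91228677 and Olig1 at 91269769 to 91271939. Olig1 carried the tallest Qki-5 and PPARb peaks found near any of the 10 genes. The site at 91265991 to 91266267, 3640 bp below the low-coordinate end of Olig1, was bound in 5 of the 6 libraries, more than any other of the 49 sites. Its heights in differentiated cells were 21 for Qki-5 (14.9 to 28.9), 22.7 for PPARb (16.9 to 29.8) and 35.6 for HA (26 to 47.7). By rank the PPARb peak was 297 of 26406 and the HA peak 425 of 30042. No Pol II peak overlapped it. In isolated cells the same site had 7.79 for Qki-5 (4.54 to 12.5) and 10.3 for PPARb (6.22 to 16.1). The PPARb peak there ranked 136 of 1393, within the tallest 14% of its list, while 69.4% of the isolated-cell Qki-5 list was at least as tall as the Qki-5 peak.

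A neighbouring site at 91262868 to 91263112 had 22.1 for Qki-5 (15.8 to 30.1), 16 for PPARb (11.2 to 22.2) and 23.0 for HA (15.4 to 33), and no peak in isolated cells. A weaker site at 91280551 to 91280925, 8799 bp above the high-coordinate end, had peaks of all 4 antibodies, HA at 14.3, PPARb at 10.7, Qki-5 at 8.85 and Pol II at 6.03. Olig1 itself had its Pol II peak of 22.5 (17 to 29.2) centred 38 bp inside the low-coordinate end, at rank 456 of 13270. That Pol II peak overlapped no other list, and a PPARb peak of 11.6 (7.56 to 17) inside the gene stood without a partner too. The tallest Qki-5 and PPARb peaks at Olig1 thus lay apart from its Pol II peak.

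At Olig2, which runs along the plus strand, no peak lay inside the gene and most binding was 5′ of it. The site at 91222591 to 91222846, centred 2832 bp before the gene, had 14.2 for PPARb (9.74 to 20.1) and 27.7 for HA (19.3 to 38.6), with no Qki-5 or Pol II peak in differentiated cells. In isolated cells a Qki-5 peak of 7.33 (4.19 to 11.9) lay at 91222913 to 91223113, its centre 267 bp from that of the PPARb peak, so the pair did not overlap. A further HA peak of 13.5 lay 5242 bp beyond the gene's 3′ end. Olig2 was therefore near an HA and a PPARb peak in differentiated cells and near a Qki-5 peak in isolated cells.

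The homeodomain genes had few peaks. Nkx2-2 (chromosome 2, 147176485 to 147195434) had an intragenic site at 147185738 to 147185955, 564 bp after the RefSeq start at 147186402, with 9.4 for Qki-5 (5.48 to 15.1) and 13.5 for HA (7.84 to 21.6). A further HA peak of 11.9 (6.65 to 19.6) was centred 94 bp after the start and touched the promoter printed above. The Qki-5 peak of isolated cells, at 10.1 (6.32 to 15.3), was also intragenic but 4992 bp away from the differentiated-cell peak. No PPARb or Pol II peak was called near Nkx2-2.

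Nkx6-2 (chromosome 7, 139579376 to 139582797) had no differentiated-cell peak of any antibody. Its only peak was a Qki-5 peak of isolated cells at 139572764 to 139572964, 6512 bp beyond its 3′ end and inside the neighbouring gene Inpp5a. At 5.95 (3.17 to 10.2) it held 13 tags, which is the calling threshold of that library, and 95.1% of the list was at least as tall. Within 20 kb, Nkx6-2 and Olig2 were the genes with Qki-5 peaks in isolated cells and none in differentiated cells. Of all genes 0.955% had that pattern, and of the 26 other lineage regulators 1 (3.85%). Both isolated-cell peaks were lower than the median of their list, 9.16. With a window of 50 kb all 10 genes had a Qki-5 peak in differentiated cells, so the pattern depends on the 20 kb window. For Olig2 that wider window takes in Qki-5 peaks described here at Olig1, 34335 and 37489 bp from Olig2. The isolated-cell peak at Olig2, 2537 bp from the gene, also lies within the 5 kb window, while that near Nkx6-2 does not.

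Sox10 (chromosome 15, 79154913 to 79164490) had no peak inside its span in any library. The tallest Qki-5 peak of its window, 13.8 (8.95 to 20.4), and its PPARb peak, 8.46 (5.09 to 13.2), lay at a site at 79141001 to 79141389, 13718 bp away and 56 bp from the end of a gene, where 1700088E04Rik and Polr2f meet. HA at 7.92 and isolated-cell Qki-5 at 7.79 shared that site. A site at 79152746 to 79152970, 2055 bp below the span and 1084 bp from Polr2f, had 12.7 for HA (7.24 to 20.6) and 7.79 for isolated-cell Qki-5 (4.54 to 12.5).

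Beyond the other end of Sox10, 1242 bp above the span, isolated cells had a PPARb peak of 9.79 (5.8 to 15.5) at 79165632 to 79165832. It ranked 196 of 1393 and overlapped no peak of the other 5 libraries. A site 5205 bp above the span held Qki-5 at a height of 6.64 and HA at 6.34, the lowest height in the HA list. No Pol II peak was called near Sox10 in differentiated cells. Binding within 6 kb of Sox10 thus consisted of 3 sites, each with 1 or 2 libraries.

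Sox8 (chromosome 17, 25565893 to 25570686) showed another arrangement, with the tallest Pol II peak among the 10 genes. That peak reached 38.6 (31.3 to 47.1), rank 155 of 13270, centred 53 bp inside the gene start. A Qki-5 peak of 14.4 (9.39 to 21.1) lay just upstream over the printed promoter, and no PPARb or HA peak overlapped either. All 4 differentiated-cell lists had peaks at 2 sites near Sox8. The site 4058 bp beyond the 3′ end, at 25561670 to 25562001, had 19.9 for Qki-5 (13.9 to 27.6), 17.4 for PPARb (12.3 to 23.7), 24.6 for HA (16.7 to 34.9) and 12.9 for Pol II (8.8 to 18.2). The other, upstream at 25578885 to 25579244, lay 110 bp from the neighbour Lmf1. No isolated-cell peak was called in the Sox8 window.

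Myrf (chromosome 19, 10208271 to 10240777) had its tallest peaks next to other genes. The site at 10188351 to 10188631 lies inside Fads1, a fatty acid desaturase gene, at the far edge of the window, and had 18.8 for Qki-5 (13 to 26.3), 18.7 for PPARb (13.5 to 25.3), 23.8 for HA (16 to 33.9) and 10.9 for Pol II. A second site in Fads1 had 16, 12.5, 11.1 and 5.63 for the same antibodies. A further site lay where Fen1 and Tmem258 meet, its centre inside Fen1 and 32 bp from the end of Tmem258. It had 17.7 for Qki-5, 9.51 for HA, 4.82 for Pol II and 10.5 for isolated-cell Qki-5 (6.68 to 15.8). That Pol II peak was below its library's threshold height of 5.63. Within Myrf itself, differentiated cells had a site at 10213867 to 10214236 with 11.1 for Qki-5 (6.76 to 17.1), 11.1 for PPARb (7.2 to 16.4), 20.6 for HA (13.5 to 30.2) and 6.43 for Pol II (3.68 to 10.4). It lay 5780 bp from the low-coordinate end. Isolated cells had a low intragenic Qki-5 peak of 5.5 (2.84 to 9.6), below that library's threshold height of 5.95. A lone HA peak of 10.3 covered the high-coordinate end.

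Zfp24 (chromosome 18, 24009717 to 24020813) had 4 sites. The site at 24020594 to 24020948 spans the high-coordinate end of the gene and held 21 for Qki-5 (14.9 to 28.9), 20 for PPARb (14.6 to 26.8), 38.0 for HA (28 to 50.4) and 17.7 for Pol II (12.8 to 23.7). All 4 stood within the tallest 7.13% of their lists, and the HA peak was the tallest HA peak near the 10 genes, at rank 307. The isolated-cell Qki-5 peak of 15.6 (10.8 to 21.8), rank 689 of 8380, was the tallest of that library near the 10 genes. Its centre lay 370 bp inside of the differentiated-cell centre, so the peaks did not overlap. A separate PPARb peak of 16 lay 1040 bp beyond the end, and a Qki-5 peak of 7.19 lay 18786 bp beyond it.

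Zfp488 (chromosome 14, 33967070 to 33979034) had a single intragenic site, at 33974828 to 33975054. Its heights were 6.64 for Qki-5 (3.43 to 11.6) and 11.9 for HA (6.65 to 19.6) in differentiated cells, and 7.79 for Qki-5 (4.54 to 12.5) in isolated cells. Neither PPARb nor Pol II was called there. The Qki-5 peak of differentiated cells held 12 tags, the calling threshold, yet stood at the same place as the isolated-cell peak.

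Tcf7l2 (chromosome 19, 55741797 to 55933659) had the most sites, 17, made of 13 HA, 11 Qki-5, 8 PPARb and 4 Pol II peaks in differentiated cells. Its promoter site at 55741454 to 55741741 held Qki-5 at 18.3 (12.6 to 25.6), PPARb at 12.0 (7.92 to 17.5), HA at 13.5 (7.84 to 21.6) and Pol II at 9.65 (6.18 to 14.4). Inside the gene, 4 further sites carried Qki-5, PPARb and HA without Pol II, the one with the tallest PPARb and HA peaks at 55837968 to 55838313 with 9.96, 10.7 and 21.4. Another, at 55895394 to 55895661 with 8.85, 9.35 and 12.7, lay just after a second RefSeq start of the gene, at 55895321. A sixth shared site, with Pol II, lay 19756 bp beyond the 3′ end. Per 100 kb of window Tcf7l2 had 4.74 Qki-5, 3.45 PPARb and 5.61 HA peaks, against 3.5, 3.06 and 4.37 over the other 9 genes and 2.16, 1.91 and 2.19 over all protein-coding genes. For Pol II it had 1.73 peaks per 100 kb, against 2.19 over the other 9 genes and 1.17 over all protein-coding genes. At least 13 HA peaks were found near 82 of the 21887 genes, Tcf7l2 included. In isolated cells no Qki-5 or PPARb peak was called anywhere in its window of 231863 bp.

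**Figure D3:**
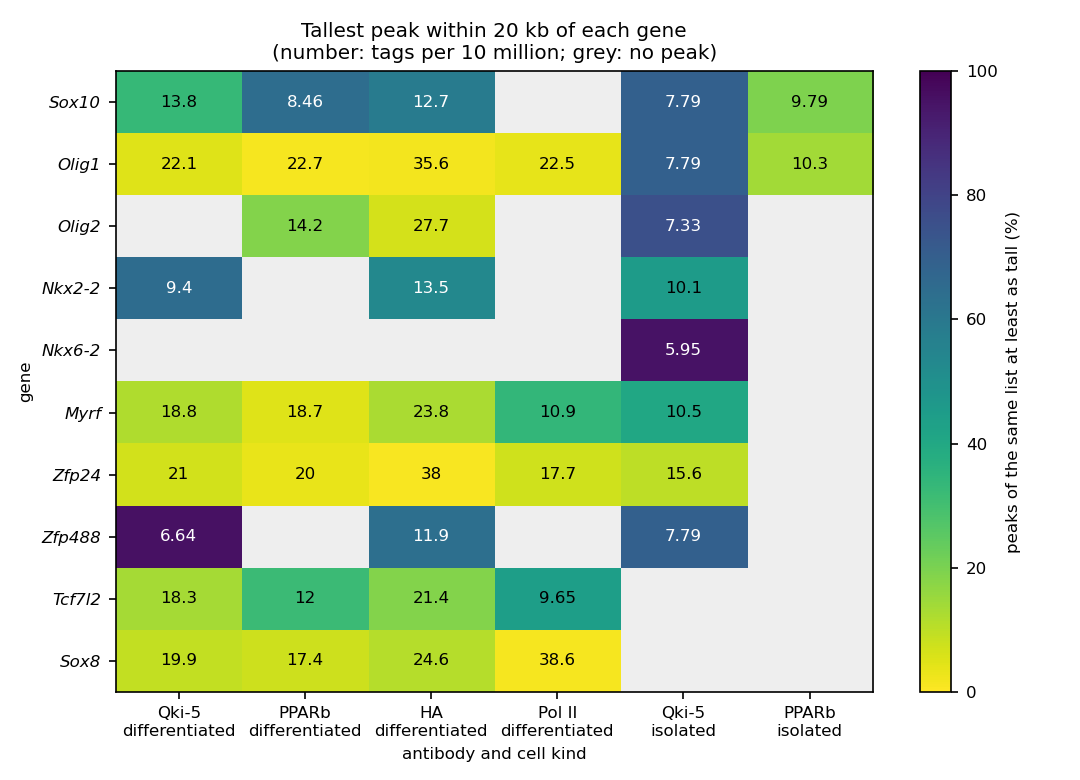
Height of the tallest peak within 20 kb of each gene (rows) in each library (columns), in tags per 10000000; the colour gives the share of the same list that is at least as tall (%), and grey cells have no peak. Yellow cells, the tallest parts of the lists, include cells of Olig1, Zfp24 and Sox8, Myrf for PPARb (5.05%) and Olig2 for HA (6.51%). The Nkx6-2 row holds a single value of 5.95.

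Ordered by the tallest Qki-5 peak in differentiated cells, Olig1 at 22.1 (15.8 to 30.1) was followed by Zfp24 at 21, Sox8 at 19.9, Myrf at 18.8, Tcf7l2 at 18.3, Sox10 at 13.8, Nkx2-2 at 9.4 (5.48 to 15.1) and Zfp488 at 6.64 (3.43 to 11.6). The intervals of neighbours in this order overlapped throughout, and those of Olig1 and Nkx2-2 did not. For PPARb the order was Olig1 at 22.7, Zfp24 at 20, Myrf at 18.7, Sox8 at 17.4, Olig2 at 14.2, Tcf7l2 at 12.0 and Sox10 at 8.46 (5.09 to 13.2). In both orders the Myrf values come from the site inside Fads1, and the Sox10 values from the site where 1700088E04Rik and Polr2f meet. Peaks nearest to Myrf itself reached 11.1 for either antibody. Nearest to Sox10 itself, Qki-5 reached 6.64 and no differentiated-cell PPARb peak was called. Over all their peaks, the 10 genes were close to the lists they came from. The median height was 12.2 for the 27 Qki-5 peaks near them, against 11.1 for the list, 11.35 against 9.79 for the 22 PPARb peaks and 13.5 against 13.5 for the 33 HA peaks. The 14 Pol II peaks had a median of 9.045, against 8.84 for the list. The 10 isolated-cell Qki-5 peaks had a median of 7.79, against 9.16, and 3 of the 10 lay above the list's median. Both isolated-cell PPARb peaks, at 9.79 and 10.3, lay above their list's median of 7.61.

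**Figure D4:**
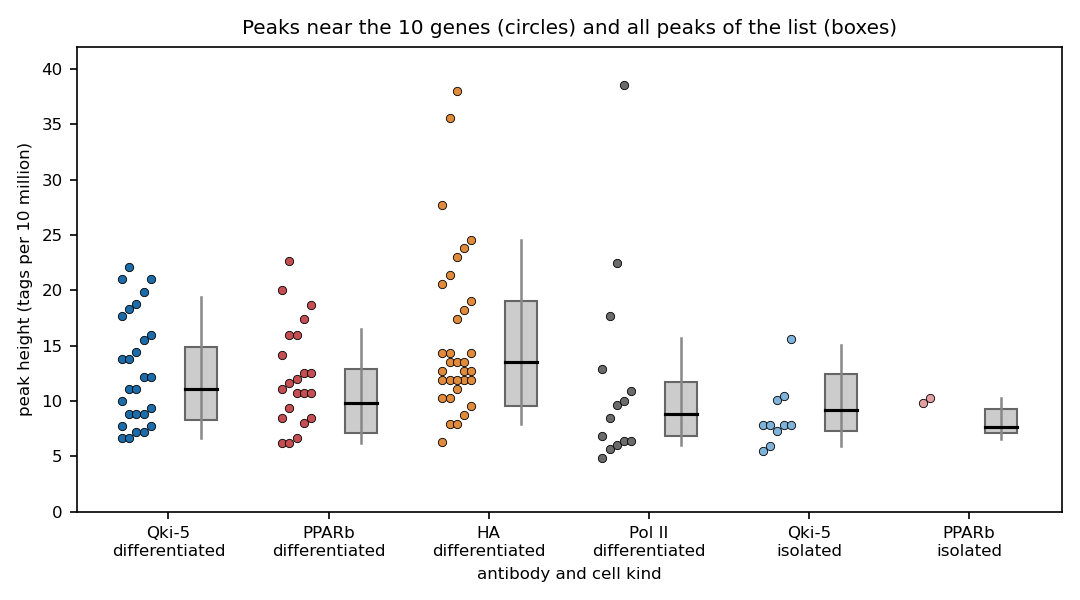
Peak heights (y axis, tags per 10000000) by library (x axis): circles are the peaks near the 10 genes, and boxes give the median and quartiles of all peaks of the list, with lines from the 10th to the 90th percentile. The circles spread over the range of their lists, with Pol II at 38.6 (Sox8) and HA at 38.0 (Zfp24) highest.

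Fewer of the peaks lay close to a gene end than in the lists as a whole, by values within counting error. Within 1000 bp of the end of any protein-coding gene were 22.2% (8.62 to 42.3) of the Qki-5 peaks near the 10 genes, against 32.8% of the whole list. The shares were 22.7% (7.82 to 45.4) against 33.5% for PPARb, 18.2% (6.98 to 35.5) against 34.2% for HA and 42.9% (17.7 to 71.1) against 56.2% for Pol II. In isolated cells 3 of the 10 Qki-5 peaks, 30% (6.67 to 65.2), lay so close, against 60.5% of the list. Each of these 5 intervals included the share of its list, so the differences were within counting error. Peaks near the same gene are not independent.

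Qki-5 and PPARb shared sites near the 10 genes about as often as elsewhere. Of the 27 Qki-5 peaks, 16 overlapped a PPARb peak, 59.3% (38.8 to 77.6) against 65.1% of the list, and these were 72.7% (49.8 to 89.3) of the 22 PPARb peaks against 74.4%. HA overlapped 85.2% (66.3 to 95.8) of the Qki-5 peaks against 66.6% of the list, and 86.4% (65.1 to 97.1) of the PPARb peaks against 73.5%. Of the 33 HA peaks, 57.6% (39.2 to 74.5) overlapped PPARb, against 64.6% of the list. Pol II peaks overlapped Qki-5 in 10 of 14 cases, 71.4% (41.9 to 91.6) against 73.8%. The same input served all 4 of these lists. The PPARb and HA antibodies both target PPARb, HA its introduced form, so their lists do not stand for separate factors. Of the 49 sites, 18.4% carried Qki-5, PPARb, HA and Pol II, against 20.3% of all sites, and 14.3% carried the same without Pol II, against 17.8%. Sites with 2 of Qki-5, PPARb and HA were 20.4% against 19.9%. HA without the other 2 stood at 14.3% against 14%, PPARb at 6.12% against 7.47% and Qki-5 at 8.16% against 13.8%. Pol II without the other differentiated-cell antibodies made up 3 sites, 6.12% against 2.79%. Sites of isolated cells alone numbered 6, 12.2% against 3.93%. Without Tcf7l2, which holds 11 of the Qki-5 peaks, 10 of 16 Qki-5 peaks (62.5%) overlapped PPARb. With an overlap of at least 100 bp 21.4% of the Pol II peaks overlapped Qki-5, and among peaks 8-fold over input 32% of the HA peaks overlapped PPARb.

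At the level of genes, 6 of the 10 had Qki-5 peaks in both cell kinds, Sox10, Olig1, Nkx2-2, Myrf, Zfp24 and Zfp488, against 44.4% of all genes. At the level of sites, 4 of the 10 Qki-5 peaks from isolated cells coincided with Qki-5 in differentiated cells, 40% (12.2 to 73.8) against 69.5% of the list. Among peaks 8-fold over input 0 of 3 did so, and with centres within 500 bp counted as shared 5 of 10 did. The 4 were the Polr2f end near Sox10, the shared site at Olig1, the site near Myrf where Fen1 and Tmem258 meet, and Zfp488. Of the 10 peaks, 5 overlapped a peak of any differentiated-cell list, 50% (18.7 to 81.3) against 79.6%, and 2 of 10 overlapped PPARb, 20% (2.52 to 55.6) against 65%. The peaks that overlapped no differentiated-cell peak were at Olig2, Nkx2-2, Nkx6-2, Zfp24 and inside Myrf. Those at Zfp24 and Olig2 still lay close to one, with centres 370 bp from Qki-5 and 267 bp from PPARb. The cell kinds were called against different inputs. Their libraries differ in origin (differentiated in culture or isolated from brain), strain, passage and introduced PPARb, which cannot be told apart here.

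The 10 genes were set beside other regulators of the lineage, with no test. In differentiated cells 8 of the 10 genes had a Qki-5 peak within 20 kb, 7 one of PPARb, 9 one of HA and 5 one of Pol II. Of 26 other regulators, among them chromatin remodellers, SoxD and other Sox factors and nuclear factor I genes, 23 had Qki-5, 22 had PPARb, 24 had HA and 24 had Pol II. For Pol II these counts are 50% of the 10 genes and 92.3% of the 26, where all protein-coding genes had 56.5%, so the 10 lay near the share of all genes. In isolated cells 8 of the 10 genes had Qki-5 and 2 had PPARb, against 18 and 6 of the 26. The median span was 10338 bp for the 10 genes and 27912 bp for the 26. Per 100 kb of window the 10 genes had 3.92 Qki-5 and 2.03 Pol II peaks in differentiated cells, against 2.82 and 1.08 for the 26. By their tallest PPARb peak the leading of the 26 were Nfib at 21.8, Sox5 at 20, Nfia at 18.7 and Tcf12 at 17.8, where Yy1 tied at 17.8. Nfib and Nfia encode nuclear factor I proteins, Sox5 a SoxD factor that restrains differentiation, and Tcf12 a helix-loop-helix partner of the Olig proteins. The PPARb peak at Olig1, 22.7 (16.9 to 29.8), stood above these 4 by value, by less than its counting interval.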

How the data were processed

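Peaks were called by the authors in 6 antibody libraries with HOMER findPeaks in factor style, per the file headers, on duplicate-removed tags of mm10, at a false discovery rate of 0.001, with tags 4-fold above input and above the flanking 10000 bp. The submitters' processing notes name, without roles, HOMER 4.10.1, Bowtie 1.2.2, SAMtools 1.8, bcl2fastq 2.19.1.403 and Trim Galore 0.4.4. The deposited normalized tag count is a signal scaled to 10000000 tags. The authors' fold over input is a ratio. Deposited total tags are raw counts in 4 lists and an input-scaled signal in 2, Pol II and PPARb of differentiated cells. Per the file headers, the tag sets for Qki-5 of differentiated cells and for the input of isolated cells have merge in their names, with no account of what was joined.

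Tags per peak were taken as height times depth, rounded. Gene spans are those of GRCm38.p6, the same assembly as mm10. Ranks use whole lists, ties sharing the best rank. Overlap means at least 1 bp between 200 bp peaks. All 10 genes are named, with their tallest peaks, and of 26 other regulators the 4 with the tallest PPARb peak. The genes and the lists were chosen with earlier results of these data known. Without replicates no test was run. Window and overlap counting was tested on simulated peaks, planted beyond the high-coordinate end of each gene. All simulated shifts were below 500 bp, so the check of the 500 bp setting could not fail. Python 3.11.15, pandas 2.3.3 and SciPy 1.17.1 were used. Alternatives were windows of 5 and 50 kb, spans alone, 8-fold over input, nearest-gene assignment, 100 bp overlap and centres within 500 bp; leaving out Tcf7l2, and nearest-gene assignment for overlaps, were chosen after seeing the data.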

Additional observations from a re-analysis of the deposited data

How the results depend on the processing

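Of 74 values recomputed under an alternative, 62 stayed within 1.5 times the count, or within the interval of the share, and 12 did not. With gene spans alone, 4 of the 10 genes had Qki-5, 3 PPARb and 4 HA peaks in differentiated cells, and 4 had Qki-5 and 0 PPARb peaks in isolated cells, since flanking sites were left out by construction. With a 50 kb window, 8 genes had Pol II. Peaks of at least 8-fold over input left 3 genes with Pol II and, in isolated cells, 3 with Qki-5 and 0 with PPARb. At 8-fold, HA peaks overlapped PPARb in 32% of cases, and 0 of 3 isolated-cell Qki-5 peaks overlapped differentiated-cell Qki-5, with fewer peaks in both lists by construction. With an overlap of 100 bp, Pol II peaks overlapped Qki-5 in 21.4% of cases; the cause was not tested. No value was left for the overlaps of isolated-cell PPARb peaks at 8-fold. No paired analysis was possible because each group had 1 library. Missing peaks in isolated cells rest on libraries with 0.849% of tags in peaks for Qki-5 and 0.116% for PPARb, though their depth was not the lowest of the series.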
